A study of Mus musculus with 6 samples.

Results

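These 42 genes are lowered over 2-fold and change their isoform use when mouse duodenal organoids are given BMP2. They were taken from the 202 genes of the authors' deposited isoform table. For each gene, the summed mean abundance of its listed isoforms was divided by their summed usage in each condition. The quotient is an implied gene level in TPM, a transcript abundance scaled to the same total in every library. A level could be formed in both conditions for 195 genes, and 62 of them, 31.8%, had a log2 ratio of BMP2 to vehicle under -1. The rule set aside 22 genes by name, among them E2f1, Gins1, Brca1 and Srsf3. Of these 20 had passed the threshold, and 42 genes with 54 listed isoforms remained. The level ratio chose these genes, so levels and usage are given as a description, with no test of their own. Usage is the authors' fraction of a gene's transcripts, printed in percent, and all 54 isoforms passed the authors' q-value threshold of 0.05.

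The cultures were wild-type C57BL/6 duodenal crypt organoids, self-organising epithelium grown from intestinal crypts. Vehicle or BMP2 at 100 ng/ml was added at day 6 and left for 24 h, with 3 libraries per condition. Separate cultures or animals are not named in the labels, so the authors' q-values measure the spread between these libraries, which may be technical. The values are the authors' means per condition. They have no replicate error here, and library depth is unknown. In bulk RNA, fewer cells of a type and less RNA per cell cannot be told apart. None of the 52 fixed markers of secretory, mesenchymal, immune, endothelial and neural cells is in the table, and the identity of the tissue could not be checked from it.

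BMP2 is a secreted ligand that signals through serine/threonine kinase receptors and SMAD transcription factors. In the intestine BMP activity is low around the crypt base, where stem and progenitor cells divide, and high toward the villus, where cells stop dividing and mature. Dividing cells need DNA synthesis and repair, histone supply, ribosome assembly, nucleotides and a spindle, and many genes for these tasks are more active in crypts. A gene can also make several isoforms from different start sites, exons or ends, and their shares can shift when the total changes.

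Implied levels of the 42 genes ranged from 4.71 to 124.9 TPM in vehicle, with a median of 16.3, and from 0.876 to 27.2 TPM in BMP2, with a median of 4.12. The median log2 ratio was -1.88, against -0.12 over all 195 genes, a gap that the choice of the genes fixes. In BMP2, 24 of the 42 lay under 5 TPM, where a usage value rests on few transcripts, and 2 did so in vehicle. Over all 195 genes, 49 lay under 5 TPM in BMP2 and 25 in vehicle. The choice of lowered genes favours low levels in BMP2. At the threshold, Zfp932, Knop1 and Lrch1 were just inside, with log2 ratios of -1.06, -1.05 and -1.05. Tra2b, Ctdspl2 and Snapc3 were just outside, at -0.97, -0.95 and -0.91. The plot of gene levels sets both values of 41 genes side by side.

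**Figure D1:**
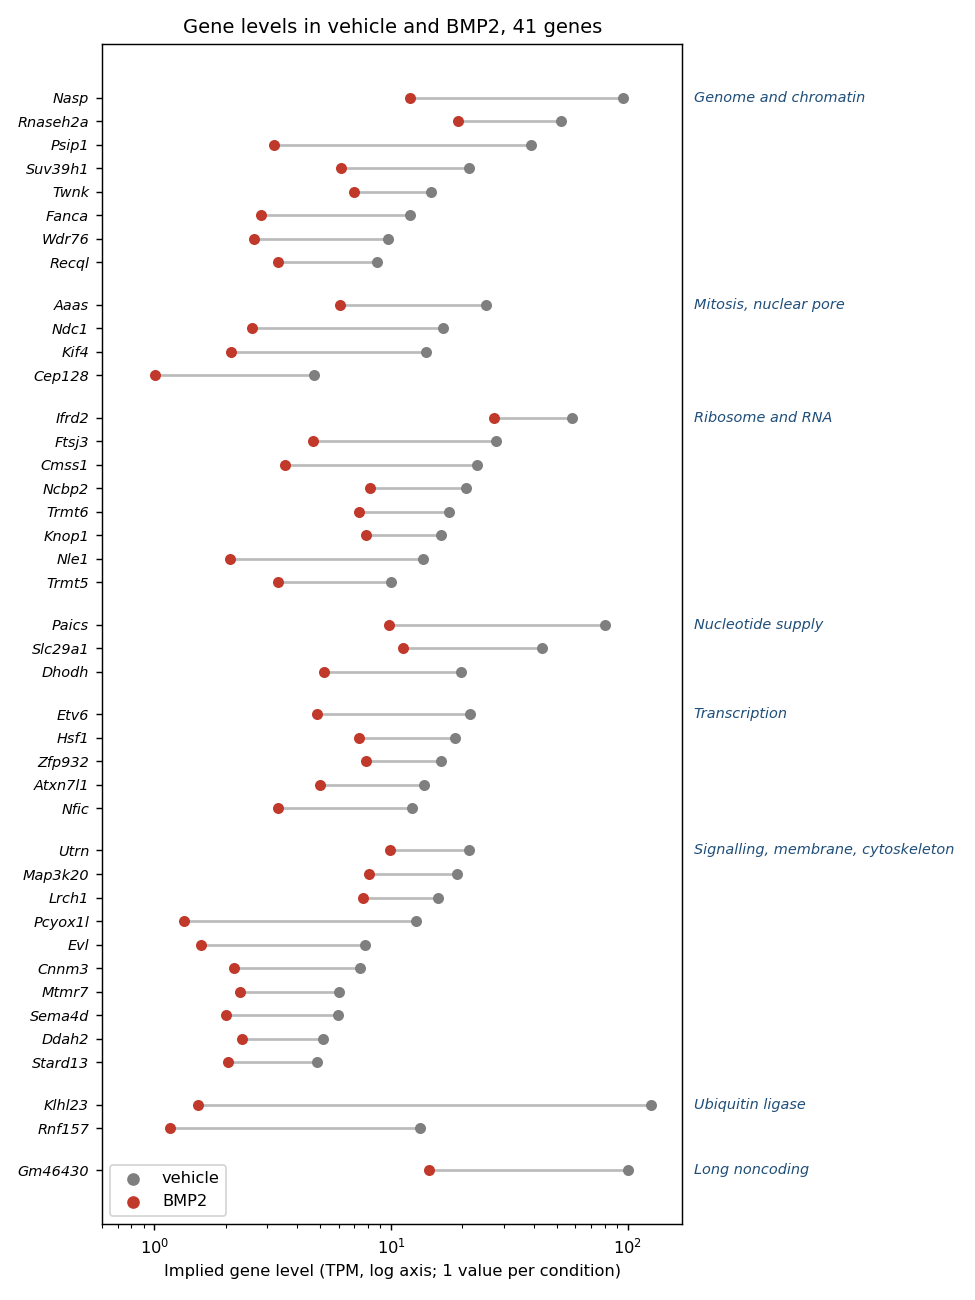
Implied gene level in TPM (log axis) of 41 of the 42 genes in vehicle (grey) and BMP2 (red), 1 value per condition from the authors' means, grouped by role. Klhl23 spans the widest distance, from 124.9 to 1.53 TPM, and Lrch1 the narrowest, from 15.7 to 7.60 TPM.

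Genes of genome maintenance and chromatin formed a group of 9, assigned by known role after the values were seen, with a median log2 ratio of -1.87. Fanca, a subunit of the Fanconi anaemia core complex, was at 12.03 and 2.83 TPM. Fanca-201, with 43 exons and a coding length of 4317 bases, fell from 31.5% to 14.7% of the gene (q = 0.0187 in the authors' deposited table). Wdr76, a WD40-repeat protein linked to the DNA damage response, was at 9.66 and 2.64 TPM, and Wdr76-201 fell from 30.8% to 6.6%. The exons of Fanca-201 share 12.3% of their bases with Zfp276 on the opposite strand. The sources used here do not state the strand setting of the quantification, which makes such values uncertain.

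Nasp, a chaperone that keeps histones H3 and H4 soluble, had the third highest vehicle level, 95.1 TPM, and 12.01 TPM in BMP2. Its listed isoform Nasp-201 fell from 30.9% to 12.7% of the gene (q = 9.02e-05 in the authors' deposited table) and from 29.4 to 1.53 TPM. Nasp-201 carries an additional coding exon of 975 bases (chromosome 4, 116610403 to 116611377, minus strand, GRCm38) that Nasp-202 lacks. The first 120 bases of this exon mark the longer form and are shown in capitals, after 15 bases of the exon before.
Nasp-201: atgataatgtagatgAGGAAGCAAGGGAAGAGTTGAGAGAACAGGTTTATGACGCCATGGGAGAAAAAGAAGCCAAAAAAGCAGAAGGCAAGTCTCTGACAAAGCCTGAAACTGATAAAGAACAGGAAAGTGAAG
The rest of the gene, to which Nasp-202 belongs with all other unlisted transcripts, was at 65.7 TPM with vehicle and 10.5 TPM with BMP2, so 33.5% of the difference in level came from the long form.

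Psip1 encodes LEDGF, a chromatin reader that binds methylated histone H3, and was at 38.97 TPM with vehicle and 3.22 TPM with BMP2. The protein-coding Psip1-203 fell from 34.7% to 15.4%, and Psip1-206, annotated as retaining an intron, rose from 7.2% to 22.1% (q-values of 0.000599 and 0.00244 in the authors' deposited table). Both were less abundant in BMP2, at 13.5 and 0.504 TPM for Psip1-203 and at 2.80 and 0.702 TPM for Psip1-206. The models part at the end of the exon from 83463595 to 83463713 on chromosome 4 (minus strand, GRCm38). Psip1-203 splices from there to its last exon, while Psip1-206 runs on into the intron. The last 30 shared bases are in lower case and the next 25 bases of each model in capitals.
Psip1-203: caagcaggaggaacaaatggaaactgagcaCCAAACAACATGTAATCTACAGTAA
Psip1-206: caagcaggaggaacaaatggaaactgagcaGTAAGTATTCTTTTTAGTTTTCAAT
The capitals of Psip1-206 open with GTAAGT, the letters of a 5′ splice site that is left unspliced in this model. The longer Psip1-201, with a coding length of 1584 bases against 993, is not listed. Psip1-203 and Psip1-206 each share 11.9% of their exonic bases with Snapc3 on the opposite strand and are uncertain for that reason.

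Suv39h1, a histone H3 lysine 9 methyltransferase, was at 21.4 and 6.15 TPM with vehicle and BMP2. Its listed isoform Suv39h1-205 retains an intron and fell from 29.4% to 8.3% (q = 0.000769 in the authors' deposited table). The direction is opposite to that in Psip1. Suv39h1-205 shares 27.3% of its exonic bases with Gm14820 on the opposite strand. Rnaseh2a, the catalytic subunit of ribonuclease H2, which removes RNA from DNA, had 3 listed isoforms and levels of 52.3 and 19.2 TPM. The intron-retaining Rnaseh2a-205, a model of 338 bases, fell from 18.9% to 0.5% and from 9.89 to 0.0977 TPM (q = 8.66e-07 in the authors' deposited table). Rnaseh2a-209 and Rnaseh2a-208 start upstream of the coding model Rnaseh2a-203 and rose, from 9.3% to 23.4% and from 3.4% to 13.6%. They share 32.5% and 45.3% of their exonic bases with other genes, most of it with Gm49661 on the same strand, so their values are uncertain.

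Recql, a RecQ-family DNA helicase, was at 8.69 TPM with vehicle and 3.33 TPM with BMP2. Recql-210, a 783-base model that retains an intron, rose from 11.9% to 34.9% (q = 0.0374 in the authors' deposited table), with 1.03 TPM with vehicle and 1.16 TPM with BMP2. It shares 14.3% of its exonic bases with Pyroxd1 on the opposite strand. The rest of Recql was at 7.66 and 2.17 TPM, so the isoform gained share while the other transcripts of the gene were less abundant.

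Twnk, the helicase of mitochondrial DNA replication (chromosome 19, 45005663 to 45012762, plus strand, GRCm38), exchanged 2 isoforms with different first exons. Twnk-201 fell from 81.0% to 45.6% and Twnk-202 rose from 19.0% to 54.4% (q-values of 0.00079 and 0.00117 in the authors' deposited table). In abundance, Twnk-201 was at 11.95 and 3.14 TPM and Twnk-202 at 2.85 and 3.82 TPM. The gene was at 14.8 and 6.97 TPM, and the 2 isoforms made up all of it. The first exon of Twnk-201 holds 1246 coding bases, and Twnk-202, whose start lies 895 bases upstream, has none in its first exon. Its annotated coding length is 690 bases against 2055. Twnk-202 shares 23.1% of its exonic bases with Mrpl43 on the opposite strand and is uncertain for that reason. Since the starts differ, both promoters are shown, from 250 bases before to 50 bases after each start, as given by RefSeq for GRCm38.p6. Capitals mark CCAAT and GGCGCC on either strand, which do not overlap each other.
Twnk-202, chr19:45005413-45005712: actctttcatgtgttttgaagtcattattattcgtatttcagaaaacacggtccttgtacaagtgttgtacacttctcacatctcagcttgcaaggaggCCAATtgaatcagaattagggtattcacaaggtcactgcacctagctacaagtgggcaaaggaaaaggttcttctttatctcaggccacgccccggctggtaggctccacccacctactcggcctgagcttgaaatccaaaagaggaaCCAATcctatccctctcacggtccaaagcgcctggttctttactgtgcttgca
Twnk-201, chr19:45006308-45006607: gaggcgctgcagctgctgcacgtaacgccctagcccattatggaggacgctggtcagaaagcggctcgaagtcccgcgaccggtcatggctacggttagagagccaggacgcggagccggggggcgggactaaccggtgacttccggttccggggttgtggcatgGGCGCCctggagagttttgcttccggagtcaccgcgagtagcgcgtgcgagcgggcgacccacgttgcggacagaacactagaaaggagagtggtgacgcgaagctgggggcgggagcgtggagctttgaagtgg
The upstream promoter holds 2 matches to the first motif and none to the second, and the downstream promoter holds 1 match to the second and none to the first. The RefSeq table covered 34 of the 42 genes with 57 promoters. The first motif was in 36.8% of these and in 37.4% of all 32851 promoters of this length, and the second in 17.5% and 11.9%. On either strand, a search for CACGTG found it in 7.02% of the 57 and 7.15% of all promoters. The letters TTTGAA were in 19.3% and 17.9%.

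Genes of mitosis and the nuclear pore numbered 4, with a median log2 ratio of -2.45. Kif4, a chromokinesin of the mitotic spindle (chromosome X, 100625737 to 100727214, plus strand, GRCm38), was at 14.0 TPM with vehicle and 2.10 TPM with BMP2. Kif4-201 fell from 93.5% to 63.9% (q = 8.04e-05 in the authors' deposited table) and carried 98.7% of the difference in level, since the rest of the gene was at 0.911 and 0.758 TPM. It shares 16.7% of its exonic bases with Pdzd11 on the opposite strand. Cep128, a protein of the centriole's subdistal appendages, was at 4.71 and 1.006 TPM, the lowest vehicle level of the 42. Cep128-210, which has 26 exons, fell from 56.4% to 9.8% (q = 0.0016 in the authors' deposited table), the second largest usage change, and stood at 2.65 TPM with vehicle and 0.0986 TPM with BMP2. Aaas, the nuclear pore protein aladin, was at 25.1 and 6.07 TPM, and Aaas-201 fell from 87.5% to 65.6% (q = 0.0406 in the authors' deposited table).

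Ndc1, a transmembrane nucleoporin that anchors the pore in the nuclear envelope, was at 16.6 TPM with vehicle and 2.58 TPM with BMP2. Ndc1-204, with the longer coding sequence, fell from 82.8% to 44.2%, while Ndc1-201, annotated as subject to nonsense-mediated decay, rose from 16.8% to 35.5% (q-values of 1.48e-05 and 0.0155 in the authors' deposited table). Ndc1-204 was at 13.7 and 1.17 TPM and Ndc1-201 at 2.79 and 0.884 TPM, so both were less abundant in BMP2. Together they made up 99.6% of the gene in vehicle and 79.7% in BMP2. The unlisted rest of Ndc1 was at 0.0663 and 0.524 TPM, so part of the lost share went to it. The models of Ndc1-204 and Ndc1-201 differ inside the gene by 1 exon, the second of Ndc1-204 (chromosome 4, 107368757 to 107368877, plus strand, GRCm38). It has 121 bases, not a multiple of 3, and the annotated coding length is 2019 bases with it and 126 bases without it. The exon is shown in capitals between the 15 bases that flank it on each side in the spliced transcript.
Ndc1-204: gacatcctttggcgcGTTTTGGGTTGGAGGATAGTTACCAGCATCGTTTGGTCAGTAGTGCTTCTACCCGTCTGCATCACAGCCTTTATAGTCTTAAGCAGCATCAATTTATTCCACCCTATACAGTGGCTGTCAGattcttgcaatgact

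A group of 8 genes acts in ribosome assembly, RNA modification or RNA binding, and their median log2 ratio was -1.46. Among those of ribosome assembly, Ftsj3, a methyltransferase of ribosomal RNA, was at 27.8 TPM with vehicle and 4.67 TPM with BMP2. Nle1, a factor of large subunit maturation, was at 13.6 and 2.10 TPM, and Cmss1 was at 23.1 and 3.56 TPM. All 3 had log2 ratios under -2.5. Ftsj3-201 fell from 95.6% to 81.2% (q = 0.0495 in the authors' deposited table, the highest of the 54 isoforms). Nle1-206, an incomplete model annotated as subject to nonsense-mediated decay, fell from 18.9% to 2.2% and from 2.57 to 0.0461 TPM. It is the only listed isoform of Nle1, so the BMP2 level of Nle1 is a quotient of small numbers and is less exact. In Cmss1 the short Cmss1-203, with 2 exons and 529 bases, fell from 48.4% to 25.8%, and the 10-exon Cmss1-201 rose from 51.1% to 74.2% (q-values of 0.00884 and 0.0081 in the authors' deposited table). The 2 forms together made up nearly all of Cmss1 in both conditions.

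Trmt5 and Trmt6 encode tRNA methyltransferase subunits, Trmt5 acting on guanosine next to the anticodon and Trmt6 as the partner of the catalytic Trmt61a. Their levels were 10.002 and 3.34 TPM for Trmt5 and 17.6 and 7.32 TPM for Trmt6. Trmt5-201 rose from 73.0% to 97.8% and the incomplete model Trmt5-203 fell from 20.4% to 2.3% (q-values of 0.0284 and 0.00174 in the authors' deposited table), whereas Trmt6-201 fell from 91.0% to 75.0%. Ncbp2, the cap-binding subunit of the nuclear cap-binding complex, was at 20.7 and 8.15 TPM. Ncbp2-201 fell from 77.4% to 48.0% (q = 0.013 in the authors' deposited table) and from 16.03 to 3.91 TPM, while the rest of the gene was at 4.68 and 4.24 TPM. Ifrd2, a ribosome-binding protein, kept the highest BMP2 level of the 42 genes, 27.2 TPM against 58.0 TPM in vehicle, and Ifrd2-201 fell from 65.5% to 45.0% (q = 0.0034 in the authors' deposited table). Knop1, a lysine-rich nucleolar protein, was at 16.3 and 7.84 TPM. Knop1-205 fell from 79.5% to 57.7% (q = 0.0212 in the authors' deposited table) and shares 18.4% of its exonic bases with Vps35l and Iqck on the opposite strand.

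A group of 3 genes supplies nucleotides, with a median log2 ratio of -1.95. Paics, a bifunctional enzyme of purine synthesis (chromosome 5, 76951307 to 76967509, plus strand, GRCm38), was at 79.9 TPM with vehicle and 9.79 TPM with BMP2. Paics-202 fell from 62.5% to 39.5% (q = 0.000337 in the authors' deposited table) and from 49.9 to 3.87 TPM. Its coding length of 1275 bases is that of Paics-203 as well, and the models differ in the first and last exon only. Dhodh, the mitochondrial enzyme of pyrimidine synthesis, was at 19.7 and 5.23 TPM, and Dhodh-201 fell from 82.2% to 57.2% as the incomplete 547-base model Dhodh-205 rose from 5.5% to 17.9% (q-values of 0.0337 and 0.00398 in the authors' deposited table). Slc29a1, the equilibrative nucleoside transporter ENT1, was at 43.3 and 11.2 TPM. Its only listed isoform, the incomplete 543-base model Slc29a1-217, rose from 1.7% to 14.1% (q = 0.00628 in the authors' deposited table), at 0.736 and 1.58 TPM. The Slc29a1 level is a quotient of 2 small numbers in vehicle and is less exact for that reason.

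A group of 5 genes acts in transcription, with a median log2 ratio of -1.46. Hsf1, the main transcription factor of the heat shock response (chromosome 15, 76477422 to 76501913, plus strand, GRCm38), was at 18.6 TPM with vehicle and 7.29 TPM with BMP2. Hsf1-205 fell from 65.6% to 39.9% (q = 0.0012 in the authors' deposited table) and from 12.2 to 2.91 TPM, while the rest of the gene was at 6.395 and 4.38 TPM. Hsf1-205 and Hsf1-201 have the same annotated start, end and coding frame, and Hsf1-205 holds in addition a coding exon of 66 bases at 76500131 to 76500196. This exon is in capitals, with 15 bases on each side.
Hsf1-205: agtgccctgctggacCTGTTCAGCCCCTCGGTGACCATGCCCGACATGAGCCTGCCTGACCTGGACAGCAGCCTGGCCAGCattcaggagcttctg
Etv6, an ETS-family repressor, was at 21.6 and 4.84 TPM. Etv6-201, with a coding length of 1455 bases, fell from 58.5% to 32.7% (q = 0.00411 in the authors' deposited table), and Etv6-202, not listed, has an additional noncoding exon and 1188 coding bases.

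Nfic, a nuclear factor I family member, was at 12.3 TPM with vehicle and 3.34 TPM with BMP2. Nfic-203 rose from 55.7% to 79.8% and Nfic-201 fell from 36.8% to 11.7% (q-values of 0.000706 and 0.00016 in the authors' deposited table). Nfic-201 holds an exon of 77 bases near its end (chromosome 10, 81403352 to 81403428, minus strand, GRCm38), with its last 48 coding bases, and Nfic-203 skips that exon and ends its coding sequence in the next one. The coding lengths, 1317 and 1284 bases, differ by 33 bases, and the end of Nfic-203 lies 2952 bases farther downstream. Atxn7l1, a paralogue of a SAGA complex subunit, was at 13.8 and 4.99 TPM, and its short Atxn7l1-203 rose from 22.9% to 45.5% (q = 0.00201 in the authors' deposited table). Zfp932, a zinc finger gene, was at 16.3 and 7.83 TPM, and Zfp932-203 fell from 34.1% to 14.8%.

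Signalling, membrane and cytoskeletal genes made up the group of 10 with the smallest median log2 ratio in size, -1.32. Map3k20 encodes the stress kinase ZAK and was at 18.9 TPM with vehicle and 8.10 TPM with BMP2. Map3k20-201 rose from 47.4% to 63.6% and Map3k20-204 fell from 49.1% to 29.2% (q-values of 0.00156 and 5.79e-06 in the authors' deposited table). In abundance Map3k20-201 was at 8.97 and 5.15 TPM and Map3k20-204 at 9.27 and 2.36 TPM. The models share 10 introns and part after exon 11, where Map3k20-204 enters a last exon of 5514 bases (chromosome 2, 72401989 to 72407502, plus strand, GRCm38) and Map3k20-201 skips it for 9 further exons. The coding lengths are 1362 and 2406 bases. The sequences show the last 30 shared bases in lower case and the first 60 bases after the junction in capitals.
Map3k20-204: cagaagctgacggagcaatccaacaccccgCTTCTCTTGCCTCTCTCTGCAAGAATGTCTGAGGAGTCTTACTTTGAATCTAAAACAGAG
Map3k20-201: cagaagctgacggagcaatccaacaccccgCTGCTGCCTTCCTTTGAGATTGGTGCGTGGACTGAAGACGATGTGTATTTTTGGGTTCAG

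Utrn, the dystrophin homologue utrophin that links actin to the membrane (chromosome 10, 12382188 to 12869365, minus strand, GRCm38), was at 21.3 TPM with vehicle and 9.90 TPM with BMP2. The short Utrn-206, which starts 312856 bases downstream of the long form and has 25 exons, fell from 66.8% to 41.3% and from 14.3 to 4.10 TPM. The 74-exon Utrn-201 rose from 25.2% to 49.3%, and its abundance was 5.37 and 4.87 TPM (q-values of 5.65e-07 and 1.01e-06 in the authors' deposited table). Of the difference in level of the gene, Utrn-206 made up 88.9%, Utrn-201 4.31% and the unlisted rest 6.79%. The maps of annotated models draw these forms with those of Map3k20, Twnk, Ndc1 and Nfic.

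**Figure D2:**
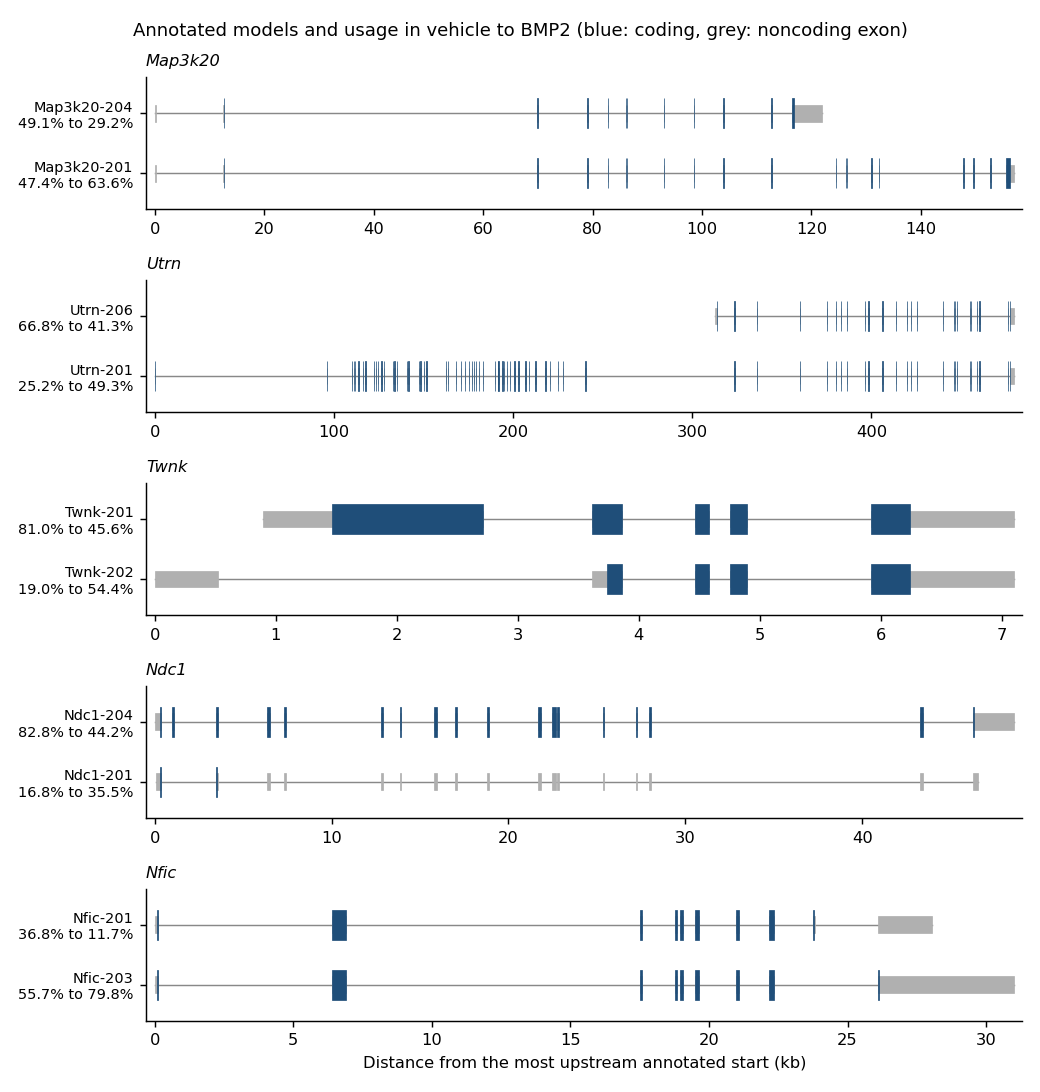
Annotated exons of the gained and lost isoforms of 5 genes, drawn from 5′ to 3′ with distance in kb on each x axis, coding parts in blue and noncoding exons in grey. Under each name stands the usage in vehicle and in BMP2, for example 66.8% and 41.3% for Utrn-206.

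Sema4d, a transmembrane semaphorin that signals through plexin B receptors, was at 5.98 TPM with vehicle and 2.01 TPM with BMP2. Sema4d-201 fell from 81.6% to 6.6% of the gene, the largest usage change of the 54 isoforms (q = 0.000619 in the authors' deposited table). It stood at 4.88 and 0.133 TPM, and the rest of the gene at 1.10 and 1.88 TPM, so the transcripts other than Sema4d-201 were not less abundant in BMP2. The unlisted Sema4d-203 has the same coding length, 2583 bases, and an additional noncoding exon of 64 bases. Evl, an Ena/VASP protein of actin filament ends, was at 7.72 and 1.57 TPM. Evl-203, whose first exon lies 51046 bases downstream of that of Evl-202, rose from 41.6% to 77.8% (q = 0.00647 in the authors' deposited table) although it was at 3.21 and 1.22 TPM, and it shares 14.7% of its exonic bases with Degs2 on the opposite strand. Mtmr7, a myotubularin-family lipid phosphatase, was at 6.02 and 2.30 TPM, and Mtmr7-202 fell from 83.6% to 44.9% (q = 4.39e-06 in the authors' deposited table).

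Cnnm3, of the CNNM family of magnesium transport proteins, was at 7.41 TPM with vehicle and 2.17 TPM with BMP2, and Cnnm3-201 rose from 47.7% to 76.9% (q = 0.0023 in the authors' deposited table). It shares 5.18% of its exonic bases with Gm38033. Stard13, a GTPase-activating protein, was at 4.88 and 2.04 TPM, with a rise of Stard13-202 from 51.0% to 73.5%, and it shares 5.81% of its exonic bases with Gm42906. Pcyox1l, a prenylcysteine oxidase-like gene, was at 12.8 and 1.33 TPM, and Pcyox1l-201 rose from 82.9% to 100% (q = 0.000259 in the authors' deposited table). For Ddah2, of the dimethylarginine dimethylaminohydrolase family, levels were 5.15 and 2.35 TPM, and Ddah2-201 fell from 96.7% to 75.8%. Lrch1, a leucine-rich repeat protein with a calponin homology domain, was at 15.7 and 7.60 TPM, and its processed transcript Lrch1-204 fell from 33.8% to 18.1%.

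The 2 genes of ubiquitin ligases had a median log2 ratio of -4.93. Klhl23, a Kelch-family gene of the kind that guides cullin ubiquitin ligases to substrates, had the highest vehicle level and the largest ratio, an 81.6-fold lower level in BMP2 (chromosome 2, 69821944 to 69836651, plus strand, GRCm38). Klhl23-201 rose from 61.7% to 85.4% (q = 0.0131 in the authors' deposited table), at 77.0 TPM with vehicle and 1.31 TPM with BMP2. The rest of the gene was at 47.8 and 0.223 TPM. With a pseudocount of 1 TPM the Klhl23 level was 49.7-fold lower, a log2 ratio of -5.64 in place of -6.35. No exonic overlap of Klhl23-201 with another gene was found in the annotation. Rnf157, a RING-type ubiquitin ligase, was at 13.3 and 1.17 TPM. Rnf157-201 fell from 78.0% to 32.4% (q = 0.0254 in the authors' deposited table) and from 10.4 to 0.378 TPM. Compared with the unlisted Rnf157-202 it holds 1 more coding exon of 66 bases (chromosome 11, 116347033 to 116347098, minus strand, GRCm38), shown in capitals with 15 flanking bases on each side.
Rnf157-201: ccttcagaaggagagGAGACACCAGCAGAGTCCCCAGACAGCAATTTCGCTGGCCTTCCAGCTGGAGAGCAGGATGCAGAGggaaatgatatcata

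Gm46430, a long noncoding RNA gene with no assigned role (chromosome 13, 74579358 to 74617945, minus strand, GRCm38), was at 100.3 TPM with vehicle and 14.4 TPM with BMP2. Gm46430-210, a 2-exon model of 1512 bases, fell from 86.7% to 41.5%, and the 7-exon Gm46430-207 rose from 10.3% to 44.2%, with the lowest q-values of the 54 isoforms (q-values of 3.3e-62 and 7.27e-37 in the authors' deposited table). Gm46430-210 was at 87.0 and 5.98 TPM and Gm46430-207 at 10.3 and 6.36 TPM. Both were therefore lower in BMP2, the first by far the more.

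Across the 42 genes, usage was lower in BMP2 for 34 of the 54 listed isoforms and higher for 20, which is 63.0% lower, against 55.0% lower and 45.0% higher over all 302 listed isoforms. The share was 57.6% in the 20 lowered genes set aside by name and 52.9% in the 133 genes not lowered over 2-fold. The absolute difference ranged from 10.2 to 75.1 percentage points with a median of 22.8, and it was over 20 points in 35 of 54, against 50.7% of all listed isoforms. The authors' q-value was under 0.01 for 37 of 54, against 73.5% of all. Usage comes from the same contrast that chose the genes, so nothing is read from these shares. A listed isoform went from a majority of its gene to a minority in 14 cases, among them Rnf157-201, Mtmr7-202, Ndc1-204, Hsf1-205 and Paics-202. The reverse happened in 4, Evl-203, Cnnm3-201, Map3k20-201 and Twnk-202. No such count over all 302 listed isoforms is given here, so nothing is read from 14 against 4 either.

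**Figure D3:**
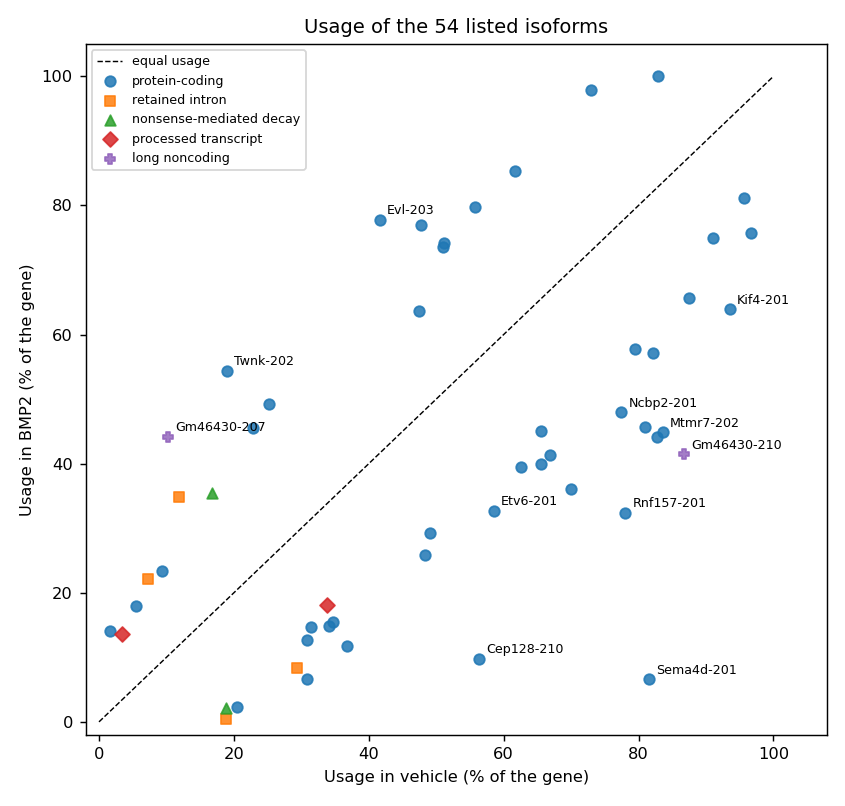
Usage of each of the 54 listed isoforms in vehicle (x axis) and BMP2 (y axis), in percent of the gene's transcripts, with the annotated class as symbol and a dashed line of equal usage. The 34 isoforms under the line lost usage and the 20 above it gained, with Sema4d-201 and Cep128-210 far below the line.

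Mean abundance was lower in BMP2 for 50 of the 54 listed isoforms, against 54.0% of all listed isoforms, as the choice of lowered genes favours. Of the 20 isoforms that gained usage, 16 were less abundant in BMP2, against 22.1% of all isoforms with a gain. The 4 that were more abundant were Twnk-202, Recql-210, Slc29a1-217 and Rnaseh2a-208. Each has a limit given above, an overlap with another gene for Twnk-202, Recql-210 and Rnaseh2a-208 and an incomplete model of low abundance for Slc29a1-217. For those 16, the gain in usage was a smaller relative loss than that of the gene's other transcripts. The choice of lowered genes favours this, so nothing is read from the count. In the 20 lowered genes set aside by name, 10 of the 14 isoforms with a gain were less abundant in BMP2.

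In the 31 genes with 1 listed isoform, the abundance of the unlisted rest of the gene was obtained as level minus listed abundance. Where several isoforms are listed, levels from single isoforms spread by up to 5.05% in vehicle and 9.19% in BMP2. The direction of a small difference in the rest, as in Trmt6, is therefore uncertain. The listed isoform lost usage in 23 of the 31 genes. In them its abundance had a median log2 ratio of -3.00, and the rest of the gene one of -0.69, a gap that follows in sign from the loss of usage. The listed isoform made up a median of 82.2% of the difference in level. In a lowered gene whose listed isoform lost usage, this share is above the isoform's usage in vehicle by construction. The rest was less abundant in BMP2 in 19 of the 23 and more abundant in 4, Sema4d, Mtmr7 at 0.987 and 1.27 TPM, Trmt6 at 1.59 and 1.83 TPM and Ddah2 at 0.170 and 0.568 TPM. In Knop1 it was at 3.34 and 3.32 TPM. In these genes and in Kif4 the lower level was almost wholly that of 1 isoform, whereas in Nasp the rest was 6.26-fold lower as well. Klhl23, Evl, Cnnm3, Atxn7l1 and Stard13 lay on the other side, with a rest of the gene that was lower by a larger ratio than the listed isoform.

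**Figure D4:**
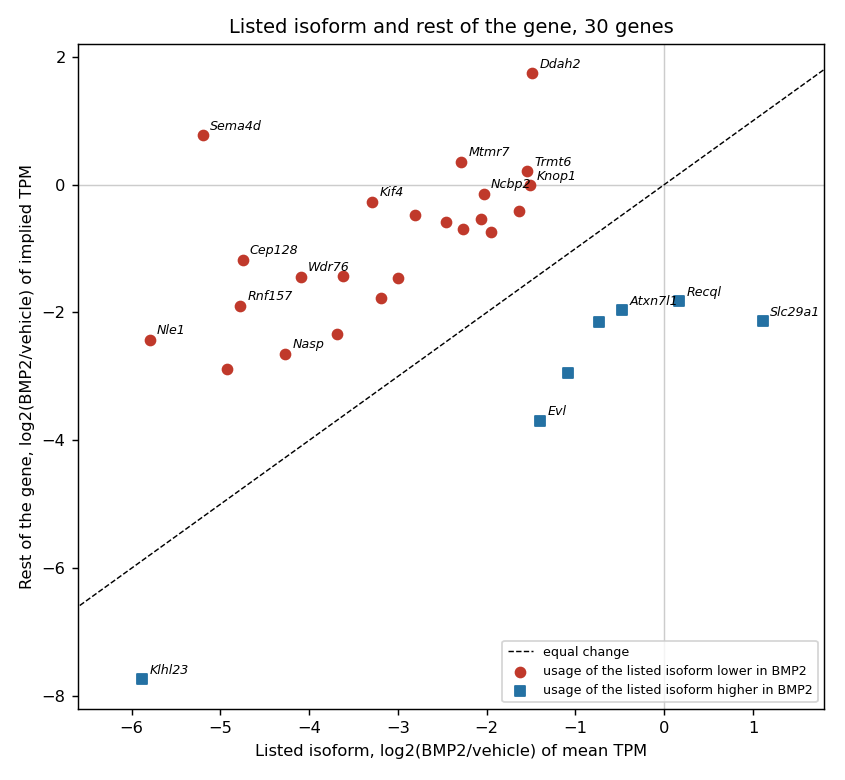
Log2 ratio of BMP2 to vehicle for the listed isoform (x axis) and for the rest of the gene (y axis) in 30 genes with 1 listed isoform and a rest above 0 in both conditions. Red points lost and blue squares gained usage, the dashed line marks equal change, and Sema4d, Mtmr7, Trmt6 and Ddah2 lie above 0 on the y axis.

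By annotated class, 44 of the 54 isoforms were protein-coding, 81.5% against 77.8% of all listed isoforms. Of these 44, 29 had lower and 15 higher usage, which is 65.9% lower against 60.9% of all listed protein-coding isoforms. Of the others, 4 retain an intron, 2 are subject to nonsense-mediated decay, 2 are processed transcripts and 2 long noncoding. In 11 genes with both a gain and a loss, classes were compared between the listed isoforms with the largest loss and the largest gain. Usage passed from protein-coding to some other class in 2, Ndc1 and Psip1, against 31.0% of all 87 such genes. In both, unlisted transcripts also held a larger share in BMP2 than in vehicle. Usage moved the other way in 1, Rnaseh2a, against 11.5%, judged by the isoform with the largest gain. That isoform, Rnaseh2a-209, is an incomplete model with 163 coding bases, and the processed transcript Rnaseh2a-208 gained usage as well. Both isoforms were protein-coding in Cmss1, Dhodh, Map3k20, Nfic, Trmt5, Twnk and Utrn, 7 of the 11, against 54.0% of the 87. With so few genes nothing is read from these shares. In the 7, the gained model had the longer annotated coding sequence in Map3k20, Utrn, Cmss1 and Trmt5 and the shorter in Twnk, Nfic and Dhodh. Trmt5-203 and Dhodh-205 are incomplete models, so this order is uncertain in Trmt5 and Dhodh, and nothing is read from it. Of the 42 genes, 12 have a listed isoform that shares over 5% of its exonic bases with another gene, against 54 of all 195 genes with a level. The 2 shares are close, so this is no trait of the 42 genes.

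Of 14 gene lists of intestinal cells and pathways, 8 held any of the 42 genes and 11 of the 42 genes were on a list. Beside the counts of lowered list genes that follow stands the 31.8% of all 195 genes in the table with a level that were lowered. The lists' counts in the table are small, at most 10. The DNA replication and repair list had 10 of its 77 genes in the table, all lowered over 2-fold, with Fanca among these 42 genes. The mitosis, centrosome and cilium list had 2 of 75, Kif4 and Cep128, both lowered. The nucleotide and one-carbon list had 3 of 39, all lowered, with Paics and Dhodh here. Chromatin and transcription factors had 4 of 73, all lowered, with Suv39h1 here, and solute carriers and channels 2 of 61, both lowered, with Slc29a1 here. The semaphorin and guidance list had Sema4d alone of 56 and the ubiquitin ligase list Klhl23 alone of 65. Cytoskeleton and GTPases had 2 of 87, of which Utrn was lowered, RNA processing 4 of 63, of which 1 was lowered, and the enterocyte list 2 of 27, of which 1 was lowered and 1 raised. The stem and progenitor list had 3 of 38, all lowered and none among these 42. The BMP and SMAD list, the secretory list and that of mesenchymal, immune, endothelial and neural cells had none. The table holds only genes with changed isoform use, so these counts do not describe the lists as a whole.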

How the data were processed

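Isoform values of 6 libraries, 3 per condition, were used as the authors' means per condition. Kallisto 0.46.1 and the build mm39 are named in the submitters' processing notes. The headers match the output of IsoformSwitchAnalyzeR, an R package, whose version, test and filters the sources used here do not give. TPM values, isoform fractions (printed as percent usage), their difference and the q-value or p-value of each usage change are the authors', per the file headers. Every listed isoform has a q under 0.05 and an absolute difference of at least 0.101. Depth per library is unknown, and no test across libraries was made.

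From these, gene levels, their log2 ratios and the abundance of the rest of each gene were computed with Python 3.11.15 and pandas 2.3.3, with no pseudocount. The level step was checked on simulated data made as known levels times usages, without noise between libraries. That checks the arithmetic only, and not how exact the levels of these data are. In the 11 genes with several listed isoforms, levels from single isoforms spread by a median of 0.463% of their mean in vehicle and 1.57% in BMP2, and at most by 5.05% and 9.19%, both in Trmt5. All 54 isoforms were matched by stable identifier to GENCODE M21 (GRCm38), each 1 version step older than in the table, so exon ends may differ from the authors' mm39 models. The structural partners of single isoforms were chosen after the values were seen. Members, lists and roles were chosen with earlier results of these data known. Named genes are all members but 1, which is not reported here by name and stays in the counts and medians, with values in full for those with the lowest ratio, largest usage change or highest vehicle level.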

Additional observations from a re-analysis of the deposited data

How the results depend on the processing

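The number of genes was 42, and it was 24 with a ratio under 1/3 and 36 with a pseudocount of 1 TPM, which removed Stard13, Ddah2, Twnk, Zfp932, Knop1 and Lrch1. It was 40 at 5 TPM or more in vehicle, 41 at 1 TPM or more in both conditions, 28 with a q under 0.01 and 30 with an exonic overlap of at most 5%, an alternative added after the data were seen. Asking for a summed usage of at least 0.05 in both conditions left 40 genes. The median log2 ratio, -1.88, was -1.58 with the pseudocount, -2.63 with a ratio under 1/3, -1.87 at 1 TPM or more in both conditions, -1.90 with a q under 0.01, -1.84 with a summed usage of at least 0.05 and -1.90 with an overlap of at most 5%. With a usage difference over 0.2, isoforms with higher usage numbered 12 instead of 20, and those with lower usage 23 instead of 34. With a q under 0.01 these counts were 15 and 22. With a difference over 0.2 for both isoforms, 0 genes moved from protein-coding to another class and 0 the other way. Of the single genes, 37 of 42 moved by less than 1.5-fold with the pseudocount. Those that moved more include Klhl23 at -5.64, Rnf157 at -2.72, Pcyox1l at -2.57 and Cep128 at -1.51. With the level from 1 isoform, the 11 genes with several listed isoforms moved by less than 1.5-fold, and the other 31 cannot change by construction. No level reversed. Leaving out a replicate was not run, since the values are means per condition. No paired analysis was possible because the columns carry no replicate.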
